A study of Danio rerio with 72 samples.

Results

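The genes described here encode the enzymes of glycolysis and the subunits of oxidative phosphorylation, the mitochondrial machinery that makes ATP from respired oxygen. They were taken from the array annotation by the spelling of the gene symbol, without use of any measured value: symbols that begin with nduf, cox4 to cox8, uqcr, atp5, sdha to sdhd, ldha or ldhb, pgk1, pgam1 or pgam2, eno1 to eno4, tpi1, gpia or gpib, aldoa to aldoc, pfk, hk1 or hk2, pkm and gapdh. Of 15617 probe sets on the array, 134 matched with a single annotated symbol, for 117 genes. Of these, 131 were ordinary probe sets and 3 were the maker's control probe sets for gapdhs. By role, 33 probe sets (27 genes) were glycolytic enzymes, 80 probe sets (74 genes) were subunits of respiratory complexes I to V, 10 probe sets (9 genes) were assembly factors of complexes I and II, and 7 probe sets (6 genes) were regulators. The last one, pkmyt1, is a cell cycle kinase that matched by its spelling only and is not described further.

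The tissue was posterior presomitic mesoderm, the unsegmented tail tissue from which somites form, dissected from zebrafish embryos at the 12-somite stage. The study changed the signalling pathways that act in this tissue and measured RNA on 72 single-colour arrays in 19 groups, with 4 arrays in each group except where given. In the drug experiments, wild-type AB embryos raised at 24 °C received retinoic acid (RA) for 1.5 h or 3 h (3 arrays at 3 h), DAPT for 1.5 h (3 arrays) or 3 h (2 arrays), or DMSO, the solvent, for the same times. DAPT inhibits gamma-secretase, the protease that releases the active part of Notch receptors, and each drug had DMSO arrays of its own. In the heat-shock experiments every embryo, controls included, was heated to 37 °C. Wild-type AB embryos and Tg(hsp701;dnfgfr1-EGFP) embryos, which carry a dominant-negative FGF receptor, were heated for 30 min and dissected 30 min or 1 h later. Embryos labelled Tg(hsp:70:DeltaTcF-gfp), Tg(hsp:70:dkk1-gfp) and Tg(hsp:70:wnt8a-gfp), which carry 2 inhibitors and a ligand of the Wnt pathway, were heated for 30 min, dissected 1 h later and set against wild type at 1 h. Embryos from Tg(UAS:myc-notch1a-intra) crossed with Tg(hsp70;gal4VP16), which carry the active intracellular part of Notch1a, and Tg(hsp70;gal4VP16) driver controls were heated for 1 h and dissected 45 or 90 min later. The hsp70 promoter drives these transgenes in the whole embryo, so that the measured tissue was not the only one that carried them.

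Glycolysis splits glucose into pyruvate in the cytoplasm and can feed lactate dehydrogenase when respiration is low. In the respiratory chain, complexes I and II take electrons from NADH and succinate, complex III passes them to cytochrome c, complex IV (cytochrome c oxidase) hands them to oxygen, and complex V (ATP synthase) uses the resulting proton gradient to make ATP. In mouse and chick embryos, glycolysis is known to be graded along the presomitic mesoderm, high towards the tail, under the influence of FGF signalling.

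Levels below are log2(signal + 16) of the deposited array signals after quantile normalization, a scale whose floor is 4, and differences are differences of these levels, which understate the change of dim probe sets. To be tested, a probe set had to exceed the median of at least 3 arrays, and 10126 did. Among the members, 21 glycolytic, 77 respiratory, 9 assembly and 5 regulator probe sets were tested. Differences are given with their standard error (SE) from limma fitted to all 72 arrays, with p-values adjusted over all tested probe sets, and a member is said to have risen or fallen where the adjusted p was under 0.05. The replicates are labelled biological, with no word on whether each came from a clutch of its own, so the p-values measure the spread between these samples. Presomitic markers were present on every array: the summed signal of 22 of them lay between 16632 and 37302. In the libraries labelled DeltaTcf, the Wnt inhibitor dkk1b was at 12.81, close to the 13.06 of the dkk1 group and far above the 5.44 of wild type, and the name DeltaTcf below stands for the libraries with that label. In the notch1a-intra group at 45 min, notch1a ran from 8.0 to 11.83, with replicates 2 and 4 near the driver controls. Since whole tissue was measured, fewer cells of a type and less RNA per cell cannot be told apart.

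Glycolytic and respiratory genes did not move as 1 block over the 19 groups. For each array, the levels of the 27 glycolytic genes and of the 74 respiratory genes were averaged after each gene had been centred on the mean of its 19 group means. The glycolytic mean was lowest in RA-treated embryos at 1.5 h, at −0.26 ± 0.06 (SD, n = 4), and highest in the gal4 driver controls at 45 min, at 0.53 ± 0.44 (SD, n = 4). All 8 drug and DMSO groups had glycolytic means below 0, between −0.26 and −0.12, and 4 of the 11 heat-shocked groups, all of them from the gal4 experiment, lay between 0.25 and 0.53. The respiratory mean had another order: it was highest after DAPT for 1.5 h, at 0.37 ± 0.07 (SD, n = 3), and lowest after RA for 1.5 h, at −0.28 ± 0.14 (SD, n = 4). The glycolytic mean minus the respiratory mean, called the balance here, ran from −0.56 ± 0.11 (SD, n = 3) after DAPT for 1.5 h to 0.42 ± 0.18 (SD, n = 4) in dnfgfr1 embryos at 1 h. Drug and heat-shock arrays differ in heat, dissection time and experiment, so heat cannot be told apart from the other differences between them.

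**Figure D1:**
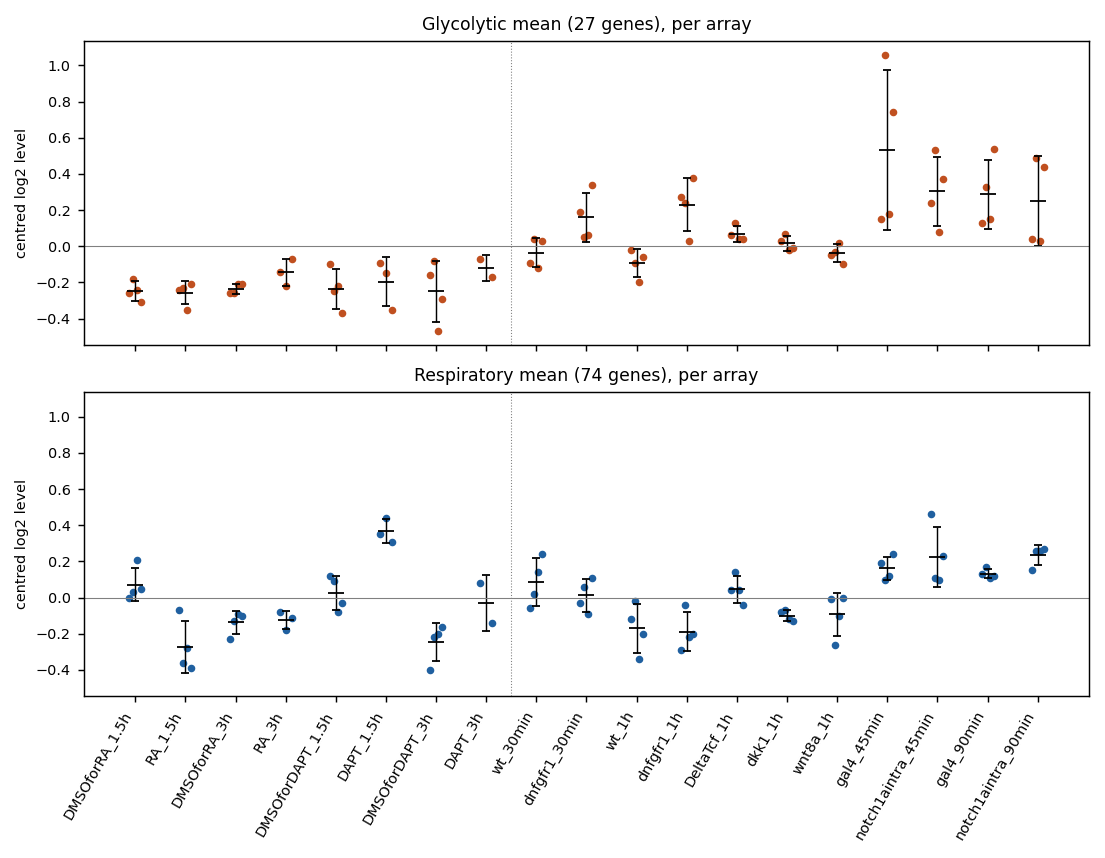
Mean centred log2 level of the 27 glycolytic genes and of the 74 respiratory genes on each array (points), by group, with the group mean and SD (bars); the dotted line divides drug and DMSO groups from heat-shocked groups. The driver controls at 45 min have the widest spread of the glycolytic mean, with an SD of 0.44, and the highest respiratory mean is that of DAPT at 1.5 h, at 0.37.

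Over the 19 group means, tested respiratory genes resembled each other more closely than glycolytic genes did. The median pairwise Pearson r was 0.34 among 73 respiratory genes, with 80.0% of pairs above 0, and 0.16 among 19 glycolytic genes, with 64.9% of pairs above 0. Between a glycolytic and a respiratory gene it was 0.10, and over all tested genes 0.00; these are descriptions over 19 groups that share arrays' scaling and experiments. The range from the lowest to the highest group mean was taken over all members of a kind, tested or not. Its median was 1.02 for the 27 glycolytic genes (0.44 to 5.09) and 1.12 for the 74 respiratory genes (0.47 to 2.51). Over all probe sets of the array, tested or not, the median was 1.0, and over the tested ones alone 1.26. Only 19 of the 27 glycolytic genes were tested, so 1.02 and 1.26 are not like for like. The 5 non-member genes whose group means followed the glycolytic mean most closely were prkcbp1l (r = 0.95), pgm1 (0.94), which interconverts glucose phosphates, cxcl14 (0.93), p4ha1b (0.93), a prolyl hydroxylase subunit, and mcl1a (0.92). Those closest to the respiratory mean, a measure added after values were seen, were naca (0.87), snrpd3l (0.86), rpl17 (0.85), ncbp2as2 (0.84) and rpl29 (0.84), which include 2 ribosomal protein genes. The glycolytic mean was highest in gal4 at 45 min, with arrays at 0.15, 1.06, 0.18 and 0.74. On these arrays p4ha1b was at 7.69, 10.88, 8.01 and 10.57. How far the r values with the glycolytic mean rest on that group was not tested.

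At the entry into glycolysis, hexokinase 1 (hk1) had group means from 8.40 after RA for 3 h to 10.51 in the libraries labelled DeltaTcf, and hexokinase 2 (hk2) from 6.11 in gal4 at 90 min to 7.05 in dnfgfr1 at 1 h. Glucose phosphate isomerase a (gpia) ran from 5.97 in DMSO of the RA experiment at 3 h to 8.80 in gal4 at 45 min. For the next step, phosphofructokinase, none of pfklb, pfkma and pfkpa was tested, and no group mean of theirs was above 5.23. Aldolase had the steadiest glycolytic member, aldoaa, between 11.32 and 11.76, while aldoab ran from 4.80 in RA at 1.5 h to 6.72 in notch1a-intra at 45 min and aldocb from 4.43 to 7.89, highest in gal4 at 45 min. Triosephosphate isomerase b (tpi1b) lay between 7.40 and 8.84 and tpi1a between 4.60 and 5.39. The widest ranges were those of the next step, glyceraldehyde phosphate dehydrogenase, with gapdh between 6.04 and 9.84 and gapdhs between 5.15 and 10.24.

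In the pay-off phase, phosphoglycerate kinase (pgk1) ran from 5.03 in DMSO of the DAPT experiment at 1.5 h to 8.30 in gal4 at 45 min. Phosphoglycerate mutase was represented by pgam1a, between 6.54 and 7.55, and pgam1b, between 5.19 and 5.75. Enolase eno1a had group means from 5.29 to 7.97, eno3 from 5.39 to 6.13 and eno4 from 4.33 to 5.39. Both eno1a and eno3 were highest in gal4 at 45 min, and eno4 was highest after RA for 3 h. Pyruvate kinase (pkma) lay between 5.30 and 6.75. Lactate dehydrogenase ldha ran from 5.29 to 7.20, again highest in gal4 at 45 min, and ldhba from 8.08 in the libraries labelled DeltaTcf to 9.17 in notch1a-intra at 90 min. The untested aldoca, eno1b, gpib, ldhbb and pgam2 had group means between 4.23 and 5.37, near the floor of the scale. Thus gpia, aldocb, pgk1, eno1a, eno3 and ldha were among the genes that shared their highest group. In contrast, gapdh, gapdhs, hk1, hk2, aldoab, tpi1b and ldhba were among those that peaked elsewhere. Within gal4 at 45 min, replicates 2 and 4 lay above replicates 1 and 3 for gpia, aldocb, pgk1, eno1a, eno3 and ldha. There eno1a was at 5.94, 10.69, 5.91 and 9.34, with drug and DMSO group means of up to 5.92.

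The glyceraldehyde phosphate dehydrogenases gapdh and gapdhs catalyse the same step and had different patterns over the groups. For gapdh, the DMSO arrays of the RA experiment at 1.5 h were at 7.02, 7.06, 7.10 and 6.72 and the RA arrays at 8.68, 8.22, 9.31 and 8.66. At 3 h the DMSO arrays were at 6.70, 6.54, 6.93 and 6.63 and the RA arrays at 10.17, 10.05 and 9.32. At both times every RA array was above every DMSO array. The rise was 1.75 ± 0.21 (SE; adjusted p = 4.76e-09; 3.35-fold) at 1.5 h and 3.14 ± 0.23 (SE; adjusted p = 2.58e-17; 8.83-fold) at 3 h. The rise at 3 h was larger by 1.4 ± 0.31 (SE; adjusted p = 0.0118), a call lost in 4 of the 23 alternative settings, with a highest adjusted p of 0.104. DAPT for 3 h also gave a higher gapdh, with arrays at 7.69 and 7.60 against 6.63, 6.71, 6.83 and 6.70 in DMSO (0.93 ± 0.26, SE; adjusted p = 0.022). This call was lost in 6 of 14 alternative settings. On the arrays of all other groups gapdh lay between 5.71 and 7.35. In the order of group means, RA at 3 h (9.84 ± 0.46, SD, n = 3) came before RA at 1.5 h (8.72 ± 0.45, SD, n = 4), DAPT at 3 h (7.64 ± 0.06, SD, n = 2) and DAPT at 1.5 h (7.07 ± 0.23, SD, n = 3). DAPT at 1.5 h did not differ beyond its spread from the next group, DMSO of the RA experiment at 1.5 h (6.97 ± 0.17, SD, n = 4), and the other 14 group means lay between 6.04 and 6.81.

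The paralogue gapdhs separated the experiments. Its group means were 5.15 to 5.94 in the 8 drug and DMSO groups and 7.63 to 10.24 in the 11 heat-shocked groups, and the highest drug or DMSO array, at 6.08, was below every heat-shocked array. Among heat-shocked groups, notch1a-intra at 90 min (10.24 ± 0.32, SD, n = 4) and the driver controls at 45 min (10.19 ± 0.48, SD, n = 4) and 90 min (10.19 ± 0.47, SD, n = 4) were the highest and did not differ beyond their spread. They were followed by dnfgfr1 at 1 h (9.38 ± 0.62, SD, n = 4), notch1a-intra at 45 min (9.31 ± 0.67, SD, n = 4) and dnfgfr1 at 30 min (9.16 ± 0.55, SD, n = 4), which also overlapped. Wild type at 30 min and 1 h and the DeltaTcf, dkk1 and wnt8a groups lay between 7.63 and 8.14. The array's 3′ control probe set for gapdhs had group means of 5.29 to 5.77 in drug and DMSO groups and 7.5 to 10.26 in heat-shocked groups, and the middle one 4.44 to 5.36 and 6.72 to 9.12. The 5′ control probe set did not separate them: its group means were 5.19 to 5.66 and 5.62 to 6.92, and the arrays overlapped. The 3′ level minus the 5′ level had group means of −0.35 to 0.44 in drug and DMSO groups and 1.43 to 3.61 in heat-shocked groups. Of 21 tested glycolytic probe sets, 2 (9.52%), those of gapdhs and pgk1, had a higher mean in each heat-shocked group than in each drug or DMSO group. By group means, 3.61% of all tested probe sets were higher in this way and 3.88% lower. Of 77 respiratory probe sets 2 (2.6%), those of ndufs8a and atp5mc3a, were lower. With drug and DMSO group means of at most 5.36 for pgk1 and 5.94 for gapdhs, both may have been tested through the heat-shocked arrays. The glycolytic count is therefore given as a description only.

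**Figure D2:**
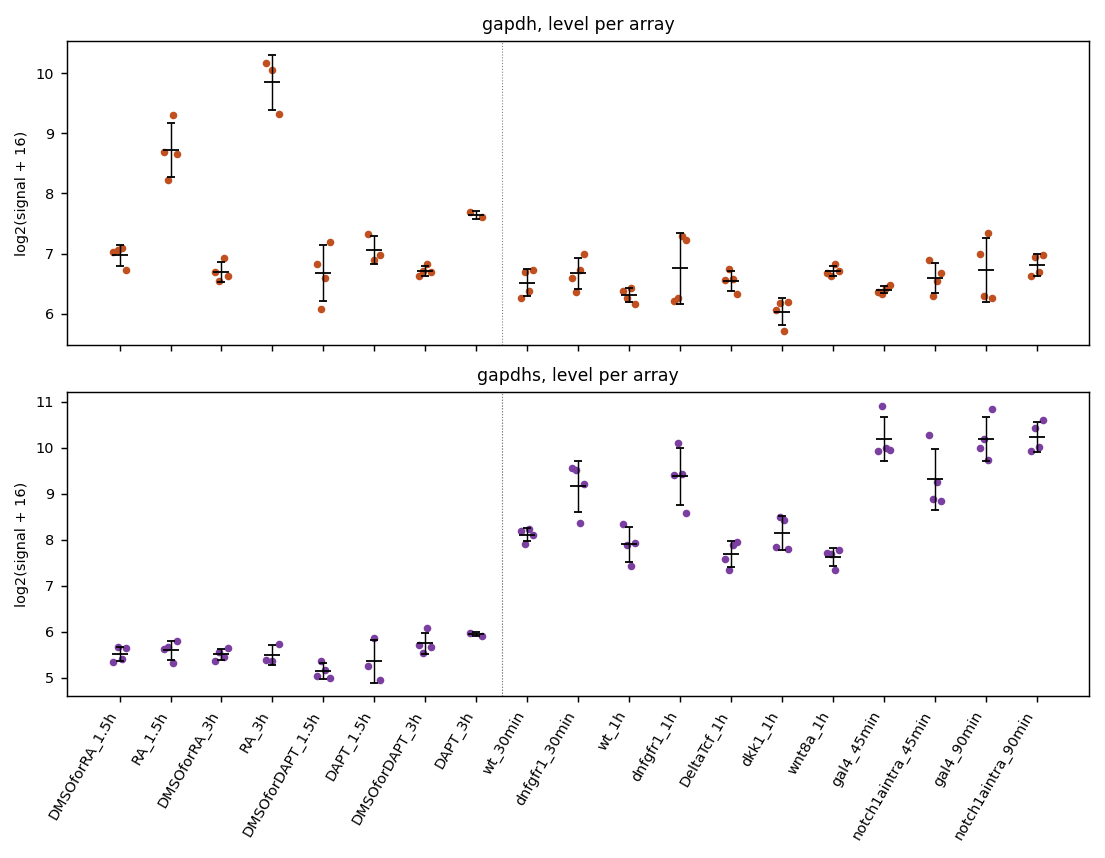
Level of gapdh and of gapdhs, as log2(signal + 16), on each array (points) by group, with the group mean and SD (bars). The RA groups stand out for gapdh, with means of 8.72 and 9.84, and the heat-shocked groups for gapdhs, with means from 7.63 to 10.24.

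For each respiratory complex, the brightest gene and those called most often are given by their range of group means. In complex I, ndufa4a, today counted with complex IV, had group means from 9.58 to 10.52, ndufc2 from 9.47 to 10.47 and ndufa8 from 9.50 to 10.22. In complex II, the catalytic subunit sdha lay between 8.67 and 9.74 and the iron-sulfur subunit sdhb between 7.80 and 9.42. In complex III, the Rieske protein uqcrfs1 ran from 10.39 in dnfgfr1 at 1 h to 11.74 in RA at 3 h, uqcrb from 8.81 to 10.02 and uqcrc2b from 9.66 to 10.37. In complex IV, cox6b2 lay between 10.94 and 11.60, cox6a1 between 9.05 and 10.38 and cox7b between 9.29 and 10.54. In complex V, the ring subunit gene atp5mc3b was among the steadiest, from 11.18 to 11.66, with no call, while atp5pb ran from 9.73 to 11.08 and atp5md from 8.24 to 9.50. The smallest range of a tested respiratory gene was that of uqcrh, 0.47, and the largest were those of atp5mc3a, 2.51, highest after RA for 3 h, atp5meb, 2.14, cox4i1l, 1.95, and cox5ab, 1.77.

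Over 17 comparisons, 65 of 77 respiratory probe sets and 12 of 21 glycolytic probe sets were called in at least 1. The same share over all tested probe sets was not counted. Single comparisons called up to 24.6% of them, so these counts are not read as a trait of the members. No glycolytic probe set was called in more than 3 comparisons, and the most for a respiratory probe set was 6. Called in 6 comparisons were ndufc2 and atp5md, with 4 rises and 2 falls each, and cox6a1, with 3 rises and 3 falls. The subunits uqcrb and atp5pb were also called in 6 comparisons and fell in each. For uqcrb these were RA at 1.5 h (−0.42), the DeltaTcf (−0.38), dkk1 (−0.43) and wnt8a (−0.31) groups and the later DMSO arrays of both drug experiments (−0.41 and −0.53). For atp5pb they were RA at 1.5 h (−0.43), DeltaTcf (−0.29), dkk1 (−0.59), wnt8a (−0.44), the later wild type (−0.41) and the later DMSO arrays of the RA experiment (−0.35). Several of these comparisons share their control arrays. In contrast, ndufa4a had 4 calls, all of them rises, in DeltaTcf (0.50), dkk1 (0.38), wnt8a (0.38) and DAPT at 1.5 h (0.42).

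**Figure D3:**
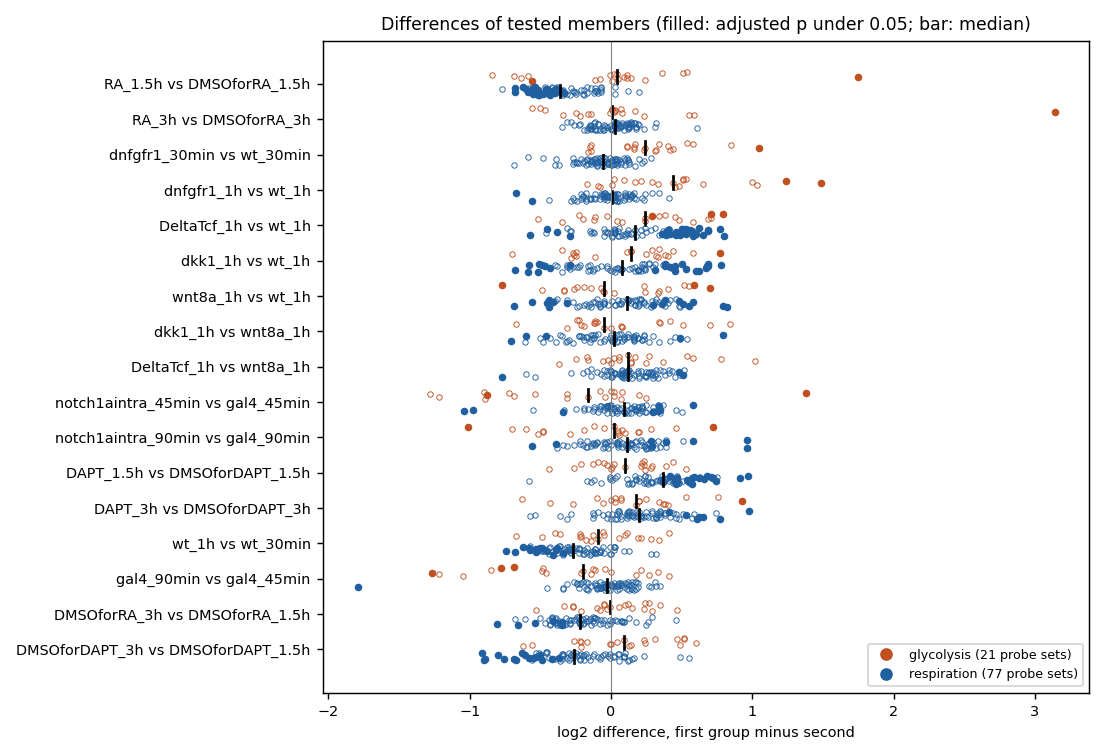
Log2 difference of each tested glycolytic (21) and respiratory (77) probe set in the 17 comparisons; filled points have an adjusted p under 0.05 and bars are medians. Respiratory points lie mostly below 0 for RA at 1.5 h (median −0.36) and mostly above 0 for DAPT at 1.5 h (median 0.37), while glycolytic medians there are 0.04 and 0.10.

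After RA for 1.5 h many respiratory genes were lower than in DMSO, while glycolytic genes other than gapdh and ldhba did not pass the test. Of 77 respiratory probe sets 21 fell and 0 rose by limma (52 lower and 0 higher at an unadjusted p under 0.05), and 73 had differences below 0, with a median of −0.36 against −0.02 over all tested probe sets. Of 21 glycolytic probe sets 1 rose and 1 fell, with a median of 0.04. In this comparison 4.34% of all tested probe sets were called, 2.37% higher and 1.97% lower. The falls were spread over complex I (9 of 35), complex III (1 of 8), complex IV (6 of 14) and complex V (5 of 16), with 0 of 4 in complex II by limma (3 at an unadjusted p under 0.05). On 31 respiratory probe sets every RA array was below every DMSO array, against 7.49% of all tested probe sets. The balance was 0.02 ± 0.16 (SD, n = 4) after RA and −0.32 ± 0.11 (SD, n = 4) in DMSO, with no overlap.

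The cytochrome oxidase subunit gene cox6a1 was at 9.54, 9.69, 10.04 and 9.69 in DMSO and at 9.37, 8.87, 9.19 and 8.79 after RA for 1.5 h, a fall of 0.68 (−0.68 ± 0.13, SE; adjusted p = 0.000259). Another subunit of the same complex, cox5aa, was at 10.11, 10.15, 10.29 and 10.03 in DMSO and at 9.88, 9.41, 9.63 and 9.31 after RA (−0.59 ± 0.13, SE; adjusted p = 0.00146). For both genes all RA arrays lay below all DMSO arrays, and the first RA array was the closest to them. In complex I, ndufa5 was at 6.95, 7.02, 7.47 and 7.13 in DMSO and at 6.87, 6.23, 6.54 and 6.19 after RA (−0.68 ± 0.17, SE; adjusted p = 0.00712). The accessory subunit gene ndufb8 was at 9.49, 9.65, 9.84 and 9.65 and at 9.33, 8.94, 9.02 and 8.92 (−0.60 ± 0.15, SE; adjusted p = 0.00833). The other non-overlapping falls with the largest sizes were those of atp5f1d (−0.55), ndufab1b (−0.55) and ndufa13 (−0.54), the last lost in 13 of 16 alternative settings. Lactate dehydrogenase ldhba was at 8.69, 8.89, 8.79 and 8.62 in DMSO and at 8.37, 8.17, 7.98 and 8.20 after RA (−0.56 ± 0.17, SE; adjusted p = 0.0368; lost in 9 of 16 alternative settings).

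At 3 h of RA no respiratory gene passed the test. Of 77 respiratory probe sets 0 were called by limma and 0 had an unadjusted p under 0.05, their median was 0.03, and gapdh was the only glycolytic call, beside 3.68% of all tested probe sets (2.23% higher and 1.45% lower). The respiratory mean of the DMSO arrays was 0.07 ± 0.09 (SD, n = 4) at 1.5 h and −0.14 ± 0.06 (SD, n = 4) at 3 h, and that of the RA arrays −0.28 ± 0.14 (SD, n = 4) and −0.12 ± 0.05 (SD, n = 3). For cox5aa, DMSO arrays at 3 h were at 9.78, 9.97, 9.93 and 9.99 and RA arrays at 10.29, 9.75 and 10.11, so that the groups overlapped. The change of its RA effect between the times was 0.72 ± 0.19 (SE; adjusted p = 0.0453); 2 members, cox5aa and gapdh, had such a call, against 0.721% of all tested probe sets. Of 20 genes listed for pyruvate dehydrogenase, the citric acid cycle and related dehydrogenases, 4 fell at 1.5 h, beside 1.97% of all tested probe sets. Among them were mdh1aa (−0.90 ± 0.14, SE; adjusted p = 3.69e-06), a malate dehydrogenase, and idh3a (−0.52 ± 0.12, SE; adjusted p = 0.00306), an isocitrate dehydrogenase subunit. Of 12 further genes of sugar metabolism, pgm1 alone rose, by 0.79 ± 0.22 (SE; adjusted p = 0.0251) at 1.5 h and 1.4 ± 0.24 (SE; adjusted p = 2.37e-05) at 3 h.

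Markers of other tissues moved with RA at 1.5 h, when 2.37% of all tested probe sets were called higher and 1.97% lower. Of 18 somite and muscle markers 5 fell, with a summed signal of 3989 to 6563 against 8828 to 15003 in DMSO, and 3 of 16 neural markers rose, with 962 to 5480 against 468 to 3017. Of 22 presomitic markers 1 rose and 6 fell, with summed signals of 21299 to 25768 against 22596 to 29951, and 7 notochord markers summed to 118 to 548 against 679 to 1075. At 3 h the somite and muscle sum was 5399 to 11226 against 11712 to 15325, the neural sum 937 to 1462 against 572 to 785 and the presomitic sum 23707 to 24271 against 25540 to 27232, none of them with overlap. Their part in the respiratory falls and in the rise of gapdh was not tested. The count of 23 called members became 8 without DMSO replicate 3, 12 without RA replicate 2 or 4, and 14 without RA replicate 3.

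In embryos with the dominant-negative FGF receptor, gapdhs was higher than in wild type at both times. At 30 min the dnfgfr1 arrays were at 9.56, 9.52, 8.36 and 9.21 and wild type at 8.19, 7.91, 8.23 and 8.11, a rise of 1.05 ± 0.26 (SE; adjusted p = 0.00893; 2.07-fold). At 1 h dnfgfr1 arrays were at 9.40, 10.10, 9.43 and 8.59 and wild type at 8.35, 7.88, 7.42 and 7.93, a rise of 1.49 ± 0.26 (SE; adjusted p = 9.17e-05; 2.81-fold). The groups did not overlap at either time. At 30 min gapdhs was the only one of 21 glycolytic and 77 respiratory probe sets called, beside 3% of all tested probe sets, 1.65% higher and 1.35% lower (1 respiratory probe set higher and 6 lower at an unadjusted p under 0.05 by limma), and the glycolytic and respiratory medians were 0.24 and −0.06.

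At 1 h, 18 of 21 glycolytic differences were above 0, with a median of 0.44, against a respiratory median of 0.01. Only gapdhs and aldoab passed the test among the glycolytic genes, and 3.42% of all tested probe sets (1.82% higher and 1.6% lower) were called. Aldolase aldoab was at 6.78, 6.82, 5.45 and 7.33 against 5.76, 5.33, 5.17 and 5.15 in wild type (1.24; adjusted p = 0.0385), with the third dnfgfr1 array inside the wild-type range; the call was lost in 11 of 16 alternative settings. In the respiratory chain, ndufa2 of complex I fell from 8.10, 8.14, 7.47 and 7.87 to 6.96, 7.28, 7.42 and 7.25 (−0.67 ± 0.19, SE; adjusted p = 0.0337), and atp5mj of complex V fell by 0.56 (−0.56 ± 0.14, SE; adjusted p = 0.00752). The balance was 0.42 ± 0.18 (SD, n = 4) in dnfgfr1 and 0.08 ± 0.10 (SD, n = 4) in wild type, with no overlap; without gapdhs the glycolytic mean was 0.16 ± 0.17 (SD, n = 4) against −0.12 ± 0.07 (SD, n = 4). Outside the members, the transketolase tktb rose at both times (0.50 and 0.54) and the prolyl hydroxylase egln3 rose by 1.82 ± 0.51 (SE; adjusted p = 0.0296) at 1 h. The dehydrogenase genes mdh1ab and idh2, of the list that holds the citric acid cycle and related dehydrogenases, rose at 30 min. The count of 4 called members fell to 2 without dnfgfr1 replicate 1, 2 or 4 or wild-type replicate 4, and to 1 without wild-type replicate 2.

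In the 3 Wnt groups calls against wild type at 1 h went in both directions, over all tested probe sets as among the members. Their comparisons share the wild-type arrays. These groups also differ from wild type in line and transgene, so Wnt signalling cannot be told apart from these in any difference below against wild type. In the libraries labelled DeltaTcf, 25 respiratory probe sets rose and 4 fell, beside 20.6% of all tested probe sets. In dkk1 embryos 16 rose and 9 fell, beside 24.6%, and in wnt8a embryos 9 rose and 7 fell, beside 16.2%. The directional backgrounds were 9.92% higher and 10.6% lower for DeltaTcf, 12.5% and 12.1% for dkk1 and 7.84% and 8.39% for wnt8a. The respiratory falls were near or below the shares called lower, so they are not read as a trait of the members. Glycolytic probe sets rose and fell in numbers of 3 and 0, 1 and 0, and 2 and 1. By complex, the DeltaTcf rises were 11 of 35 in complex I, 2 of 4 in complex II, 0 of 8 in complex III, 8 of 14 in complex IV and 4 of 16 in complex V. The dkk1 calls had 8 rises and 5 falls in complex I and 3 of each in complex V. The balance was close to that of wild type in all 3 groups, with differences of −0.05, 0.04 and −0.02. Of 67 ribosomal protein genes 19 rose and 10 fell in DeltaTcf, 16 rose and 12 fell in dkk1, and 17 rose and 7 fell in wnt8a. The summed signal of the presomitic markers was 26128 to 31644 in wild type, 32396 to 36661 in dkk1, with no overlap, 31522 to 37302 in wnt8a and 30735 to 34236 in DeltaTcf, and its part in these differences was not tested.

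The catalytic beta subunit of ATP synthase, atp5f1b, was low in all 3 Wnt groups, with the inhibitor dkk1 and the ligand wnt8a alike. It was at 11.16, 11.30, 11.26 and 10.98 in wild type, at 10.56, 10.71, 10.57 and 10.60 in DeltaTcf, at 10.59, 10.51, 10.38 and 10.50 in dkk1 and at 10.47, 10.34, 10.59 and 10.54 in wnt8a. The falls were 0.57, 0.68 and 0.69 (−0.57 ± 0.09, −0.68 ± 0.09 and −0.69 ± 0.09, SE; adjusted p = 2.3e-06, 2.21e-08 and 3.66e-08). These 12 arrays, between 10.34 and 10.71, lay below all other 60 arrays of the series, which were between 10.96 and 11.71. It was the 1 tested member for which all 12 arrays stood on one side of the rest, against 0.277% of all tested probe sets below and 0.247% above. The complex I subunit ndufa8 also fell in all 3 groups (−0.45 ± 0.09, −0.58 ± 0.09 and −0.44 ± 0.09, SE; adjusted p = 0.000169, 1.16e-06 and 0.000249), with 12 arrays between 9.44 and 9.72 against 9.69 to 10.36 elsewhere.

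Other subunits rose in all 3 Wnt groups. For ndufc2 of complex I, wild type at 1 h was at 9.73, 10.06, 9.46 and 9.85, below the 10.24 to 10.60 of the 12 Wnt arrays, with rises of 0.69, 0.69 and 0.58 (adjusted p = 7.26e-05, 5.23e-05 and 0.00103). The other groups of the series reached up to 10.53. For ndufb4 of the same complex, wild type was at 9.31, 9.28, 8.89 and 9.10, DeltaTcf at 9.98, 9.83, 9.81 and 9.70, dkk1 at 10, 9.92, 9.83 and 9.96 and wnt8a at 9.70, 9.48, 9.67 and 9.65. Every Wnt array was above every wild-type array, with rises of 0.69, 0.78 and 0.48 (adjusted p = 0.000156, 1.32e-05 and 0.0102). The DeltaTcf rises that did not overlap also included atp5md (0.80), ndufa6 (0.77), atp5f1d (0.65) and ndufa12 (0.62). In dkk1 they included ndufa2 (0.69), ndufs4 (0.68) and atp5mf (0.62), beside falls of atp5pb (−0.59), atp5mj (−0.52), ndufa13 (−0.51) and uqcrb (−0.43). In wnt8a, atp5meb (0.82), atp5f1d (0.79), atp5md (0.55), cox5ab (0.51) and ndufa4a (0.38) rose, and sdhb (−0.45), atp5pb (−0.44) and uqcrb (−0.31) fell.

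**Figure D4:**
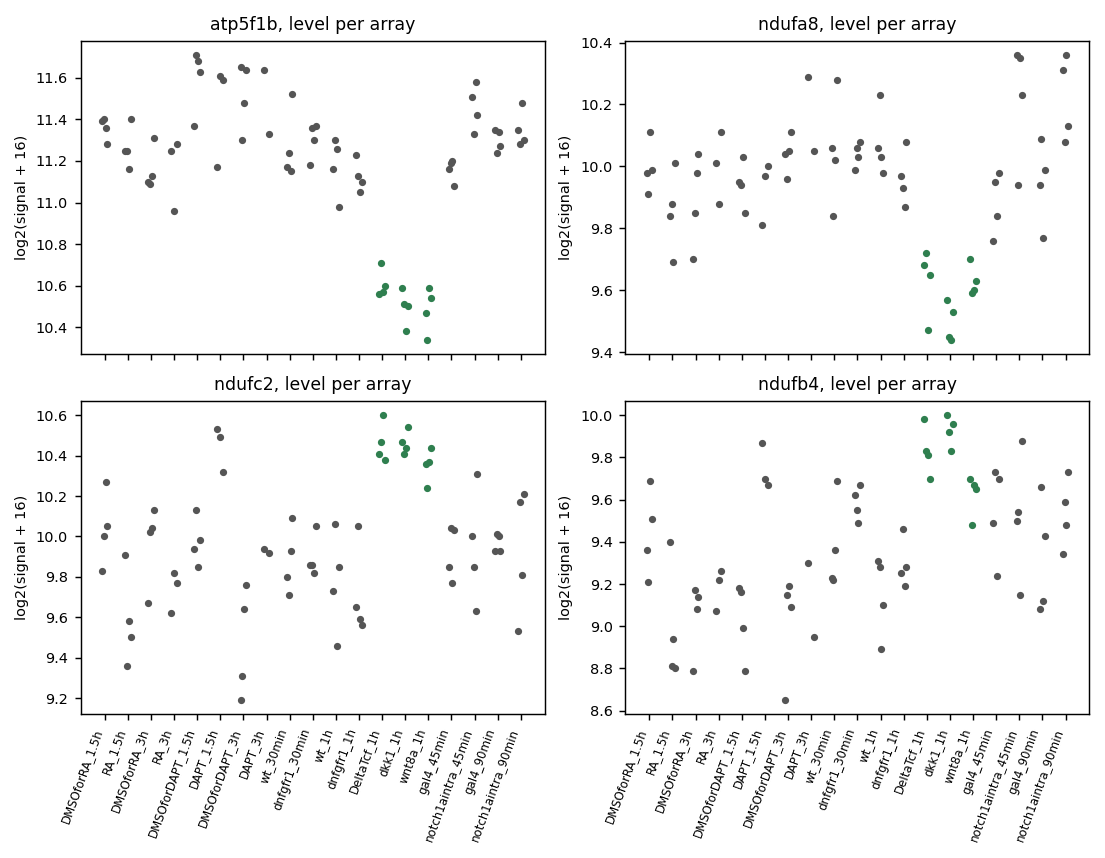
Level, as log2(signal + 16), of atp5f1b, ndufa8, ndufc2 and ndufb4 on each array of all 19 groups, with the DeltaTcf, dkk1 and wnt8a arrays in green. The 12 green arrays of atp5f1b, between 10.34 and 10.71, lie below the 60 others.

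In glycolysis the DeltaTcf and wnt8a groups had calls against wild type at the hexokinase step, and dkk1 had the same direction for hk1 without a call. For hk1, wild type was at 9.99, 9.56, 9.95 and 9.69, DeltaTcf at 10.41, 10.68, 10.34 and 10.58, and wnt8a at 10.35, 10.39, 10.48 and 10.33. It rose by 0.71 ± 0.20 (SE; adjusted p = 0.00914) in DeltaTcf and by 0.59 ± 0.20 (SE; adjusted p = 0.0384) in wnt8a. The dkk1 arrays, at 10.21, 10.14, 10.17 and 10.06, did not pass the test, although each lay above every wild-type array. The other tested probe set of hk1 rose in only 1 comparison of the series, so it was not called in both groups. The related hk2 fell in wnt8a, from 6.97, 7.47, 6.97 and 6.71 to 6.17, 6.31, 6.58 and 5.95 (−0.77 ± 0.17, SE; adjusted p = 0.00063). For both hexokinases the groups called did not overlap. Triosephosphate isomerase tpi1b rose in dkk1, from 8.44, 8.20, 7.62 and 8.06 to 9.25, 8.76, 8.46 and 8.90 (0.77 ± 0.28, SE; adjusted p = 0.0369), and aldoaa rose by 0.29 in DeltaTcf. In wnt8a tpi1a rose by 0.70, with overlap. Its group means, from 4.6 to 5.39, are near the floor of the scale, so its call is a description only.

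The inhibitor dkk1 and the ligand wnt8a, set directly against each other, differed in 5 respiratory probe sets, 2 higher and 3 lower in dkk1, and in 0 glycolytic ones by limma (4 higher and 1 lower at an unadjusted p under 0.05), beside 3.28% of all tested probe sets (1.54% higher and 1.74% lower). For ndufa2, dkk1 arrays were at 8.62, 8.67, 8.51 and 8.52 and wnt8a arrays at 8.13, 7.48, 7.89 and 7.67 (0.79 ± 0.19, SE; adjusted p = 0.00917). For atp5f1d, the delta subunit of ATP synthase, dkk1 arrays were at 8.56, 8.70, 8.25 and 8.66, near the wild type at 8.62, 8.57, 8.22 and 8.47, and wnt8a arrays at 9.31, 9.19, 9.24 and 9.27 (−0.71 ± 0.14, SE; adjusted p = 0.00118). DeltaTcf arrays, at 9.25, 9.19, 9.03 and 9.0, were on the side of wnt8a. The other called members that did not overlap were ndufv1 (0.49), higher in dkk1, and ndufab1a (−0.46), lower. Between DeltaTcf and wnt8a 3 respiratory probe sets were called, with cox6a1 higher (0.51) and atp5meb lower (−0.77) in DeltaTcf, beside 2.53% of all tested probe sets (1.22% higher and 1.3% lower), and 60 of 77 respiratory differences were above 0. The count of 3 became 0 without DeltaTcf replicate 1 or 3 or wnt8a replicate 2.

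In the gal4 experiment several glycolytic genes were higher in replicates 2 and 4 than in replicates 1 and 3, in both genotypes and at both times. On the driver control arrays at 45 min, pgk1 was at 6.92, 10.12, 7.21 and 8.95 in replicates 1 to 4, eno1a at 5.94, 10.69, 5.91 and 9.34, and ldha at 6.12, 8.32, 6.1 and 8.26. With notch1a-intra at the same time they were at 6.88, 8.68, 6.40 and 8.48, at 6.16, 8.22, 5.83 and 6.80, and at 5.28, 7.60, 5.46 and 6.88. Replicates 2 and 4 were the high ones in both genotypes. At 90 min the same order held on a smaller scale: pgk1 was at 6.70, 7.29, 6.59 and 7.53 in the driver and at 6.15, 7.14, 6.05 and 6.85 with notch1a-intra. The aldolase aldocb ran from 6.04 to 9.75 among driver arrays at 45 min, and gpia from 7.81 to 10.03. Of 21 glycolytic probe sets 9 (42.9%), those of gpia, aldocb (2 probe sets), tpi1b, pgk1, pgam1a, eno1a, pkma and ldha, had replicates 2 and 4 above replicates 1 and 3 in all 4 groups. Of all tested probe sets 1.17% had this order, and of 77 respiratory probe sets 1 (1.3%), that of ndufb4. The 2 aldocb probe sets are of 1 gene, with drug and DMSO group means of at most 5.13 and 4.81. They may have been tested through the arrays in which they were high. The same may hold for pgk1, eno1a and pkma, with drug and DMSO group means of at most 5.36, 5.92 and 6.05. The share of 42.9% may thus rest in part on the filter. The order was noticed in these values and is given as a description.

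**Figure D5:**
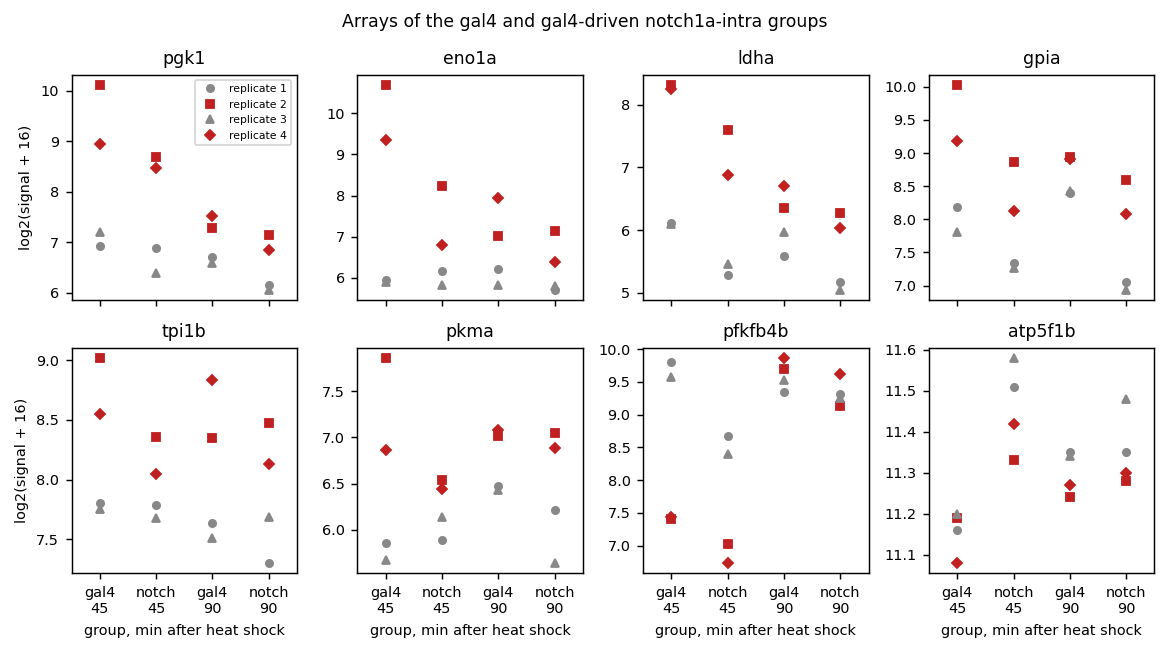
Level, as log2(signal + 16), of pgk1, eno1a, ldha, gpia, tpi1b, pkma, pfkfb4b and atp5f1b on the 16 arrays of the gal4 experiment, with replicates 2 and 4 in red. For pgk1 the red points of the driver at 45 min are at 10.12 and 8.95, and the others at 6.92 and 7.21; atp5f1b shows no such order.

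The glycolytic mean of the driver arrays at 45 min was 0.15, 1.06, 0.18 and 0.74 in replicates 1 to 4, and the respiratory mean 0.19, 0.10, 0.12 and 0.24. With notch1a-intra the glycolytic means were 0.24, 0.53, 0.08 and 0.37. Of 17 hypoxia pathway genes, p4ha1b alone had the same order in all 4 groups, at 7.69, 10.88, 8.01 and 10.57 in the driver at 45 min. Within the driver at 45 min, hif1an, egln3, pdk4, igfbp1a, igfbp1b, ero1a, ndrg1a, ddit4 and stc2a had this order too. In that group hif1ab, hif1al, egln1b, bnip3, bnip3lb, p4ha2 and bhlhe40 did not. The oxygen-sensing hydroxylase egln3 was at 5.18, 9.35, 5.57 and 8.81 there and between 5.04 and 5.25 at 90 min. The transcript of hif1ab, at 10.28, 10.26, 10.16 and 10.22, was level over the same arrays. The regulator pfkfb4b, an enzyme that sets the level of a phosphofructokinase activator, went the other way, at 9.81, 7.40, 9.57 and 7.44, while its relative pfkfb3 was at 6.02, 9.40, 5.78 and 7.19. In complex IV, cox4i1l was at 5.11, 7.56, 5.25 and 6.53. The labels do not say what a replicate number stands for, and the source of the order was not tested.

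Against this spread, the comparison of notch1a-intra with the driver at 45 min called 5 respiratory rises and 3 respiratory falls. Among glycolytic genes 1 rose and 1 fell. Over all tested probe sets 4.09% were called (2.13% higher and 1.96% lower). The respiratory falls include cox4i1l, with a mean of 6.11 in the driver at 45 min and at most 4.73 in drug and DMSO groups. It was tested through arrays in which it was high, so its call is a description only. Aldolase aldoab was at 7.26, 6.43, 6.93 and 6.27 with notch1a-intra and at 4.94, 5.51, 5.20 and 5.73 in the driver, a rise of 1.38 ± 0.36 (SE; adjusted p = 0.0165) with no overlap. Of 18 somite and muscle markers 6 rose and 1 fell in this comparison, with summed signals of 13437 to 13899 against 5818 to 9820, and their part in the aldoab difference was not tested. The summed signals of notochord markers, at 1741 to 2443 against 183 to 1513, and of blood and endothelium markers, at 261 to 1419 against 1688 to 5311, did not overlap either. For gapdhs, notch1a-intra arrays were at 10.28, 8.88, 9.25 and 8.84 and driver arrays at 9.92, 10.91, 9.99 and 9.95, a fall of 0.88 (−0.88 ± 0.26, SE; adjusted p = 0.0338) with overlap, lost in 9 of 17 alternative settings. Among respiratory genes cox5ba rose from 11.03, 11, 11.01 and 10.86 to 11.48, 11.14, 11.25 and 11.34 (0.33 ± 0.09, SE; adjusted p = 0.0273) and atp5f1b by 0.30 ± 0.09 (SE; adjusted p = 0.0358).

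With the replicate number as a block, 2 members were called in place of 10 at 45 min, both of them falls: aldocb (−1.28 ± 0.17, SE; adjusted p = 0.0185) and gpia (−0.90 ± 0.16, SE; adjusted p = 0.037). In that fit aldoab had an adjusted p of 0.0749 and gapdhs 0.291, and 1.56% of all tested probe sets were called. The group means of aldocb were 4.43 to 5.13 in drug and DMSO groups, and its driver arrays at 45 min were at 6.04 to 9.75. It may have been tested through arrays in which it was high, so its call is given as a description only. Without notch1a-intra replicates 2 and 4, whose notch1a was low, a setting chosen after the data were seen, 21 members were called, 11 of them higher and 10 lower, beside 11.7% of all tested probe sets. The glycolytic median was then −0.40 and the respiratory median 0.17, but this sets replicates 1 and 3 of one group against all 4 of the other. The count of 10 ran down to 2 without notch1a-intra replicate 3, 3 without its replicate 1 or driver replicate 2, and 4 without driver replicate 4.

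At 90 min, when notch1a lay between 11.78 and 11.93 on all notch1a-intra arrays, 6 respiratory probe sets rose and 2 fell, beside 6.87% of all tested probe sets (3.72% higher and 3.15% lower). The complex I subunit ndufa1 was at 7.96, 7.93, 8.01 and 7.92 with notch1a-intra and at 7.27, 6.62, 7.25 and 6.83 in the driver (0.96 ± 0.23, SE; adjusted p = 0.0042). Hexokinase hk2 rose from 6.08, 6.23, 6.02 and 6.1 to 7.0, 6.83, 6.87 and 6.61 (0.72 ± 0.17, SE; adjusted p = 0.00365). For both, every notch1a-intra array was above every driver array. The other non-overlapping rises were atp5mc3a (0.96), the complex II assembly factor sdhaf4 (0.63), ndufa12 (0.58), ndufb5 (0.39) and cox5ba (0.29), and the falls cox5ab (−0.56) and sdha (−0.39). The glycolytic call downwards was gpia (−1.01), with overlap, lost in 9 of 16 alternative settings. Outside the members, higd1a, a mitochondrial gene induced by hypoxia, rose by 1.42 ± 0.22 (SE; adjusted p = 5.14e-06). The summed signal of the presomitic markers was 23036 to 24031 with notch1a-intra and 24993 to 31525 in the driver, with no overlap, and its part in these differences was not tested.

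After DAPT for 1.5 h many respiratory genes were higher than in DMSO. Of 77 respiratory probe sets 20 rose and 0 fell by limma (46 higher and 0 lower at an unadjusted p under 0.05), with a median of 0.37. Of 21 glycolytic probe sets 0 were called and 0 had an unadjusted p under 0.05, with a median of 0.10, beside 4.09% of all tested probe sets (1.87% higher and 2.22% lower). The rises comprised 12 of 35 probe sets of complex I, 1 of 4 of complex II, 0 of 8 of complex III, 4 of 14 of complex IV and 3 of 16 of complex V. On 41 respiratory probe sets every DAPT array was above every DMSO array, against 5.47% of all tested probe sets. Of 67 ribosomal protein genes 11 rose and 0 fell by limma (2 lower at an unadjusted p under 0.05). The balance was −0.56 ± 0.11 (SD, n = 3) with DAPT and −0.26 ± 0.10 (SD, n = 4) in DMSO, with no overlap.

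In complex I, ndufb9 was at 8.86, 8.62, 8.60 and 9.01 in DMSO and at 9.68, 9.82 and 9.55 after DAPT for 1.5 h (0.91 ± 0.19, SE; adjusted p = 0.00277). Another subunit gene of the complex, ndufa2, was at 8.16, 8.07, 7.80 and 7.85 and at 8.73, 9.11 and 8.97 (0.97 ± 0.21, SE; adjusted p = 0.00323). In complex IV, cox6a1 was at 9.54, 9.68, 9.64 and 9.69 and at 10.43, 10.48 and 10.23 (0.74 ± 0.14, SE; adjusted p = 0.000993). In each case the DAPT arrays lay above all DMSO arrays by more than the spread of either group. The next largest rises were ndufb6 (0.72), ndufb4 (0.72), ndufa6 (0.71), ndufa11 (0.68) and ndufs6 (0.66), all of complex I. Of the marker lists of 7 tissues, a single gene, cdx4 of the presomitic list, was called. The summed signal of the 6 yolk, liver and hatching gland markers was nevertheless 9024 to 9891 with DAPT against 7136 to 8344 in DMSO, with no overlap, and that of 14 epidermis markers 6325 to 10561 against 4257 to 6462; their part in the respiratory rises was not tested. The count of 20 became 11 without DMSO replicate 3 or DAPT replicate 1 and 10 without DAPT replicate 2; on levels centred on the array median it was 5.

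At 3 h of DAPT, with 2 arrays, 7 respiratory probe sets rose, 0 fell by limma (1 lower at an unadjusted p under 0.05) and gapdh was the glycolytic call, beside 5.35% of all tested probe sets (2.27% higher and 3.08% lower). The rises were ndufa1 (0.98), atp5md (0.77), cox7b (0.65), cox7c (0.62), atp5mf (0.61), ndufv2 (0.53) and ndufab1a (0.41), beside the complex II assembly factor sdhaf2 (1.01). For cox7c, DAPT arrays were at 10.63 and 10.04 and DMSO arrays at 9.44, 9.52, 9.88 and 10.03. The count of called members became 0 without DAPT replicate 1. Some differences from DMSO at 1.5 h had changed by 3 h. For ndufb9, DAPT arrays at 3 h were at 8.45 and 8.45 and DMSO arrays at 8.48, 8.39, 8.77 and 8.68, a change of effect of −1.04 ± 0.29 (SE; adjusted p = 0.0281). For sdhc, a membrane anchor of complex II, DMSO arrays were at 8.70, 8.27, 8.39 and 8.19 and DAPT arrays at 8.86, 9.12 and 8.83 at 1.5 h, and at 7.88, 8.65, 8.17 and 8.34 and at 7.71 and 7.72 at 3 h (−1.09 ± 0.27, SE; adjusted p = 0.0146). The third such member was ndufv1 (−0.66 ± 0.20, SE; adjusted p = 0.046), and 3.96% of all tested probe sets had such a call. Beside these values at 3 h, 7 of 22 presomitic markers fell, with a summed signal of 16632 to 17575 against 20739 to 23872, and 2 of 6 yolk and liver markers rose; their part was not tested.

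Respiratory genes fell with time in the controls themselves. Wild type at 1 h after heat shock, compared with 30 min, had 16 respiratory falls and 0 rises by limma (33 lower and 1 higher at an unadjusted p under 0.05), with a median of −0.27, beside 4.37% of all tested probe sets (1.81% higher and 2.56% lower). Of 21 glycolytic probe sets 0 were called (2 lower and 1 higher at an unadjusted p under 0.05). The Rieske protein of complex III, uqcrfs1, was at 11.39, 11.33, 11.45 and 11.44 at 30 min and at 10.56, 10.84, 10.24 and 11.03 at 1 h (−0.74 ± 0.11, SE; adjusted p = 1.52e-05). The dnfgfr1 arrays, not used in that comparison, were at 11.29, 10.96, 10.86 and 11.47 at 30 min and at 10.13, 10.39, 10.56 and 10.47 at 1 h. In both genotypes the later arrays lay below the earlier ones without overlap. The other falls by size were cox5ab (−0.68), ndufa6 (−0.62), ndufab1b (−0.58), ndufs7 (−0.57), cox5aa (−0.53), ndufv2 (−0.52) and sdhb (−0.47). The count of falls became 7 or 8 without replicate 3 or 4 of either time. Wild type at 1 h is also the control of the Wnt and later dnfgfr1 comparisons.

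The DMSO arrays of both drug experiments had the same direction between 1.5 h and 3 h. In the RA experiment 6 respiratory probe sets fell and 0 rose by limma (28 lower and 1 higher at an unadjusted p under 0.05), beside 4.37% of all tested probe sets (1.79% higher and 2.58% lower), and 32 had every later array below every earlier one, against 8.62% of all tested probe sets. The falls were atp5f1e (−0.81), atp5md (−0.66), cox6a1 (−0.54), uqcrb (−0.41), uqcrh (−0.35) and atp5pb (−0.35). In the DAPT experiment 16 fell and 0 rose by limma (34 lower and 2 higher at an unadjusted p under 0.05), beside 4.83% (1.76% higher and 3.07% lower). There cox7c was at 10.63, 10.57, 10.38 and 10.83 at 1.5 h and at 9.44, 9.52, 9.88 and 10.03 at 3 h, a fall of 0.89 (−0.89 ± 0.13, SE; adjusted p = 2.31e-05) with no overlap between the groups, kept in all 16 alternative settings. The complex I assembly factor ndufaf4 (−0.93), ndufa6 (−0.91), atp5l (−0.90), ndufs4 (−0.80), atp5f1e (−0.76), cox7b (−0.69) and ndufa5 (−0.63) followed. In either experiment 0 of 21 glycolytic probe sets were called by limma, with 1 lower at an unadjusted p under 0.05 in the RA experiment and 1 lower and 3 higher in the DAPT experiment. Ribosomal protein genes moved alike, with 8 of 67 falling and 1 rising in the RA experiment and 20 falling and 1 rising in the DAPT experiment. The summed signal of yolk, liver and hatching gland markers was lower at 3 h without overlap in both experiments, at 4579 to 4911 against 5282 to 6661 and at 4658 to 6562 against 7136 to 8344. That of epidermis markers was higher at 3 h without overlap in the DAPT experiment, at 6782 to 12631 against 4257 to 6462, and the part of either in the respiratory falls was not tested. These DMSO arrays are also the controls of the drug comparisons above, and the count of 6 in the RA experiment was 3 without replicate 2 at 1.5 h, 1 without its replicate 3 and 2 without replicate 1 at 3 h.

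In the gal4 driver, by contrast, 1 respiratory and 3 glycolytic probe sets fell between 45 and 90 min, beside 5.12% of all tested probe sets (2.19% higher and 2.92% lower), with a glycolytic median of −0.20. The respiratory fall was cox4i1l (−1.79), at 4.09, 4.14, 4.35 and 4.69 at 90 min. Its group mean was 6.11 in the driver at 45 min, 5.13 with notch1a-intra at 45 min and at most 4.9 elsewhere, so that it was tested through the arrays in which it was high, and its call is given as a description only. The glycolytic falls were both probe sets of hk1 (−0.69 and −0.78) and pgk1 (−1.27), the last with overlap and lost in 10 of 16 alternative settings. As pgk1 may have been tested through the arrays in which it was high, its call is also a description only. Of 17 hypoxia pathway genes 4 fell, egln3 by 2.08 (−2.08 ± 0.51, SE; adjusted p = 0.00836). Its arrays were at 5.18, 9.35, 5.57 and 8.81 at 45 min and overlapped with those at 90 min, between 5.04 and 5.25. As egln3 too may have been tested through the arrays in which it was high, its call is a description only. Of 11 blood and endothelium markers 2 fell, with summed signals of 250 to 1539 at 90 min against 1688 to 5311 at 45 min, and their part in these falls was not tested.

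Regulators of both pathways added few calls. The kinase and phosphatase pfkfb4b was at 8.47, 8.61, 8.55 and 8.03 in wild type at 1 h, at 9.58, 9.71, 9.81 and 9.31 in DeltaTcf and at 9.87, 9.73, 9.71 and 9.59 in dkk1. It rose by 1.19 ± 0.36 (SE; adjusted p = 0.0146) and by 1.31 ± 0.36 (SE; adjusted p = 0.00537), with no overlap. In wnt8a it was at 9.09, 9.36, 9.20 and 9.55 and did not pass the test, although each array lay above every wild-type array. Its relative pfkfb1, with group means from 5.93 to 8.25, fell with notch1a-intra at 90 min (−1.10). The ATP synthase inhibitor atp5if1b, with group means from 5.41 in RA at 3 h to 7.89 in notch1a-intra at 90 min, fell in dkk1 (−0.53). Of 9 tested assembly factor probe sets 6 were called in at least 1 comparison, a share that was not counted over all tested probe sets. Among them were ndufaf6 (0.71), which rose in dkk1, and ndufaf2 (−0.61), which fell in wnt8a.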

How the data were processed

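The deposited values are array intensity values made with MAS5, per the submitters' processing notes; no source used here gives its version. The files show that the authors' intensity values were scaled to a mean of 150 after trimming 2% at each end, and 13 arrays of the DAPT experiment were rounded to 1 decimal. RNA was amplified from the 3′ end and labelled with biotin, per the labels' protocols. Array medians of log2(signal + 16) spanned 0.738, so levels were quantile normalized. The highest correlation between arrays was 0.9916, and no array was counted as a duplicate.

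Probe sets above their array's median on at least 3 arrays were kept (10126 of 15502 that are not controls; 113 of 131 member probe sets). One linear model with 19 group means was fitted to 72 arrays with limma 3.58.1 (statmod 1.5.0, R 4.3.3; trend and robust), with two-sided tests and Benjamini-Hochberg adjustment over all tested probe sets at 0.05. The members and lists were chosen with earlier results of these data known. A gene is its probe set with the highest mean. Named are every glycolytic gene, in each comparison the called members without overlap (up to 8 in each direction), in each complex the brightest gene and the 2 called most often, called genes of other lists (up to 4) and the 5 genes most like the glycolytic mean. Genes named outside this rule, such as those with overlap or a replicate order, were chosen after their values were seen.

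Alternatives were pseudocounts of 1 and 64, the deposited scaling, median centring, no filter, the compared groups alone, a replicate block, array weights and leaving out each array. Same-numbered arrays deviated together in the notch1a-intra comparison at 45 min (all 4 correlations between 0.21 and 0.312), so the replicate numbers were taken as pairs there, from the data only. On simulated arrays of 10126 probe sets for RA at 1.5 h, 38.8% of 1.5-fold, 74.6% of 2-fold and 98.5% of 4-fold changes were recovered. The number of arrays, 2 to 4 a group, limits the precision. Symbols were checked against the RefSeq table of assembly GRCz12tu, where all 134 matched.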

Additional observations from a re-analysis of the deposited data

Results flagged for a closer look

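The respiratory mean of notch1a-intra at 90 min, replicate 1, was 0.15, away from the other 3 arrays at 0.26, 0.26 and 0.27. It was the only one of 55 group and measure combinations tested for a sample apart from the rest, and chance marks about 1 in 20.

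The effect of a drug differed between its 2 times, by a test of the difference itself, for 5 members. For RA, the change from 1.5 h to 3 h was 1.4 for gapdh, whose rise grew, and 0.72 for cox5aa, whose arrays were all below DMSO at 1.5 h and overlapped with it at 3 h. For DAPT it was −1.09 for sdhc, −1.04 for ndufb9 and −0.66 for ndufv1. Each had a higher mean than DMSO at 1.5 h and a lower one at 3 h. No lower value at 3 h passed the test, and the ndufb9 arrays overlapped with DMSO there. The DAPT values rest on 2 arrays at 3 h.

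Of the maker's 3 control probe sets for gapdhs, which stood outside the tests, the 3′ one was higher on every dnfgfr1 array than on every wild-type array, by 1.01 at 30 min and by 1.36 at 1 h, and the middle one by 1.05 at 30 min. The middle one at 1 h, with means of 7.95 against 7.02, overlapped. The 5′ one overlapped at both times, with means of 5.88 against 5.62 and 5.88 against 5.75. The ordinary probe set rose by 1.05 and 1.49.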

How the results depend on the processing

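Of 220 called member differences, 208 kept direction and call with a pseudocount of 1, 219 with 64, 198 on the deposited scaling, 156 with median centring, 189 without the filter, 183 with array weights, 114 with the compared groups alone and 78 when a replicate block was added to these. Fitting groups alone leaves few residual degrees of freedom; the cause of the other changes was not tested. Scaling moved the median of all tested probe sets by at most 0.09. The number of arrays, 2 to 4 a group, limits every count, and dim glycolytic genes lie near the floor.

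Counts of called members were affected as follows. RA at 1.5 h (23) gave 15 with the groups alone and 46 with array weights, and RA at 3 h (1) gave 2 on the deposited scaling, with median centring, a pseudocount of 1 or the groups alone, and 3 with weights. The dnfgfr1 counts were 2 at 30 min on the deposited scaling or with a pseudocount of 64 (1 otherwise), 3 alone and 6 with weights, and 1 at 1 h alone (4). In wnt8a (20) weights gave 35. Between dkk1 and wnt8a (5) the counts were 8 on the deposited scaling, 8 alone and 12 with weights, and between DeltaTcf and wnt8a (3) 7 with weights. Notch1a-intra at 45 min (10) gave 5 with median centring, 6 with a pseudocount of 1, 6 without the filter, 0 alone, 23 with weights and 21 without replicates 2 and 4, and at 90 min (11) 4 alone. DAPT at 1.5 h (20) gave 5 with median centring and 0 alone, and at 3 h (9) 2 with median centring, 0 alone and 0 with weights. The driver time comparison (4) gave 0 alone. The DMSO time comparison of the RA experiment (6) gave 1 with median centring, 14 alone and 23 with weights, and that of the DAPT experiment (17) 26, 5 and 7. Changes of effect between times were 1 for RA (2) with a pseudocount of 1, without the filter or alone, and 12 with weights, 8 for notch1a-intra (0) with weights, and for DAPT (3) 1 with median centring, 5 without the filter, 0 alone and 0 with weights. For dnfgfr1 and notch1a-intra 0 members had such a change by limma, with 4 and 12 at an unadjusted p under 0.05. The balance difference of RA at 3 h was 0.13 over tested members (0.08 over all), and that of dkk1 0.15 with a pseudocount of 1 (0.04). The difference of cox4i1l with notch1a-intra at 45 min (−0.98) turned to 0.07 with array weights.

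With the replicate block, the counts were 2 for RA at 1.5 h, 0 and 0 for dnfgfr1, 3 between dkk1 and wnt8a, 2 (45 min) and 4 (90 min) for notch1a-intra, 0 and 0 for DAPT, 0 for both heat-shock time comparisons, 11 and 1 for the DMSO time comparisons of the RA and DAPT experiments, and 0 and 0 for the changes of RA and DAPT effects. The pairing was taken as real only for notch1a-intra at 45 min. Correlations between same-numbered arrays were also all positive, but lower, for DAPT at 3 h (0.104 and 0.171, 2 pairs) and notch1a-intra at 90 min (0.045 to 0.116). Whether arrays were paired there was not settled. In each of the other comparisons the correlations had both signs.

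Leaving out 1 array at a time, the counts ran from 8 to 30 for RA at 1.5 h, 1 to 2 at 3 h, 1 to 1 and 1 to 4 for dnfgfr1, 25 to 35 for DeltaTcf, 23 to 29 for dkk1, 12 to 20 for wnt8a, 4 to 6 between dkk1 and wnt8a and 0 to 3 between DeltaTcf and wnt8a. They ran from 2 to 14 and 4 to 11 for notch1a-intra, 10 to 22 and 0 to 12 for DAPT, 7 to 18 for wild type over time, 1 to 9 for the driver, 1 to 6 and 13 to 22 for DMSO of the RA and DAPT experiments, and 0 to 5 (RA), 0 to 0 (dnfgfr1), 0 to 1 (notch1a-intra) and 1 to 4 (DAPT) for changes of effect. Balance differences ran from 0.28 to 0.40 and 0.04 to 0.10 for RA, 0.22 to 0.32 and 0.29 to 0.40 for dnfgfr1, −0.10 to −0.03 for DeltaTcf, −0.01 to 0.06 for dkk1, −0.08 to 0.03 for wnt8a, 0.01 to 0.12 and −0.08 to 0.03 between Wnt groups, −0.43 to −0.09 and −0.21 to −0.05 for notch1a-intra, −0.36 to −0.25 and −0.17 to 0.00 for DAPT, 0.15 to 0.24 and −0.35 to −0.01 for wild type and driver over time, and 0.18 to 0.26 and 0.18 to 0.35 for DMSO.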
